A study of Mus musculus with 8 samples.

Results

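The 59 genes described here act in G2 and mitosis, the end of the cell cycle in which the duplicated chromosomes are condensed, attached to the spindle and divided. They were chosen by name, as rows of the deposited tables whose gene symbol is that of a gene known to act at this stage. The rule uses no measured value, but the list was drawn up with earlier results of these data known, so its shares are a description. All 59 were found among the 78298 listed rows, and all 59 had enough counts to be tested, out of 17128 rows tested in all. The cells were NIH3T3, a mouse embryonic fibroblast line, of wild-type genotype. In 1 group they received Mic-628 for 1 day, and in the other group the vehicle for 1 day. Each group had 4 libraries of poly(A) RNA. Mic-628 is the compound that the series title calls a Period1 inducer, acting on the circadian clock, and neither its dose nor the vehicle is named in the labels. Every library carries a batch number from 1 to 4, which 1 Mic-628 library and 1 vehicle library share, and this number is used as the replicate number here. Nothing in the labels tells separate cultures from repeat libraries of 1 culture. The p-values therefore rest on a spread between libraries that may be technical only.

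Entry into mitosis is driven by the kinase Cdk1 bound to A- and B-type cyclins. Its activation starts chromosome condensation and spindle assembly. The spindle checkpoint then holds the ubiquitin ligase APC/C inactive until every kinetochore is attached. Once released, APC/C with Cdc20 marks securin and cyclin B for destruction, separase opens the cohesin rings, and the cell divides along a furrow placed by the central spindle. Many of these genes are switched on together late in the cycle by the transcription factors FOXM1 and B-MYB (Mybl2) with the MuvB complex. MuvB binds a short promoter element named CHR, often found near CCAAT boxes that bind NF-Y. In cultured fibroblasts these transcripts are known to be more abundant in dividing than in resting cells.

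Promoter sequences are shown because these genes are known to share promoter elements. The RefSeq promoter table (build GRCm38.p6) held 53 promoters for 50 of the 59 genes. No promoter was matched for Ccna2, Cdc25c, Tpx2, Incenp, Kif20a, Spc24, Foxm1, Smc4 and Dlgap5. Each promoter spans 250 bases before and 50 bases after a start site. The CHR letters TTTGAA, on either strand, were found in 39 of 53 (73.6%), against 17.9% of all 32851 promoters in the table. CCAAT, on either strand, was found in 73.6% of the members' promoters, against 37.4% of all promoters. A CHR, in the letters TTTGAA or the variant TTCGAA, together with CCAAT was found in 66% of the members' promoters, against 7.52% of all promoters. The variant TTCGAA, with or without TTTGAA in the same promoter, was in 7.55% against 1.56%. The E-box letters CACGTG, the element bound by the clock proteins CLOCK and BMAL1, were in 5.66% against 7.15%. Among 27 promoters of a comparison list of S phase genes, CHR letters were in 11.1% and CCAAT in 66.7%. There the variant TTCGAA was in 2 of 27 (7.41%), close to the members' 4 of 53 (7.55%). A CHR or its variant together with CCAAT was in 18.5% of the S phase promoters, and the E-box letters were in 7.41%. Each motif was searched on its own, on both strands, and matches of different motifs may overlap. A match is a run of letters, not a site shown to be bound.

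The 5 sequences below are the 250 bases before the start site, read 5′ to 3′ on the gene's own strand, for 3 genes that were called higher after Mic-628 and for Cdk1 and its partner cyclin Ccnb1, which were not. Capitals mark TTTGAA and CCAAT, or their reverse complements TTCAAA and ATTGG. Distances are from the leftmost base of a match to the start site. Smc2 has CHR letters at 145 bases and CCAAT at 119 bases before its start, with a second CHR run 27 bases after it, outside the stretch shown. The later of 2 listed starts of Prc1 has CHR letters at 30 and CCAAT at 62 bases. In Mki67, CHR runs lie at 116 and 98 bases, and CCAAT runs at 188, 166 and 141. In Cdk1, CHR runs lie at 71 and 15 bases, and CCAAT runs at 208, 80 and 48. For Ccnb1, CCAAT runs lie at 99 and 67 bases, and the CHR letters are not in this window.
Smc2, chr4:52438971-52439220, plus strand: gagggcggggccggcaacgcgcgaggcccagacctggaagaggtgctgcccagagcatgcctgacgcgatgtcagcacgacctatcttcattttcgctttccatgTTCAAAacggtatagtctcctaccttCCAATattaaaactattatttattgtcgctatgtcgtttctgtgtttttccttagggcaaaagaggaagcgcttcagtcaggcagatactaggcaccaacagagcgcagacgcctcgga
Prc1, chr7:80294226-80294475, plus strand: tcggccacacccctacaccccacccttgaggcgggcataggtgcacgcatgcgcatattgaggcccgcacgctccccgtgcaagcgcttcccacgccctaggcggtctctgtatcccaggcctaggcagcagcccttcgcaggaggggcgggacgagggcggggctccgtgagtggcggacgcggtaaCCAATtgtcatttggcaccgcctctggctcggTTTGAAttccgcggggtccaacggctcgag
Mki67, chr7:135716380-135716629, minus strand: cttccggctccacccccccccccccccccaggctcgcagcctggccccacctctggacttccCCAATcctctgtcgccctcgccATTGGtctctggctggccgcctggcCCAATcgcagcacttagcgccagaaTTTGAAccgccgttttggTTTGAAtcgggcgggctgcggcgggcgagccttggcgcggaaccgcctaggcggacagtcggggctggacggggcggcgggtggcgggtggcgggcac
Cdk1, chr10:69352913-69353162, minus strand: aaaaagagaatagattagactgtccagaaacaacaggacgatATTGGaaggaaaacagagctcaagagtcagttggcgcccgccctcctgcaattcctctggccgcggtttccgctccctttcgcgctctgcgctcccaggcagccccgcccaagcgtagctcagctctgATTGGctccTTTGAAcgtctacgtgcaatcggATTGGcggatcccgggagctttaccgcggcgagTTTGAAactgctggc
Ccnb1, chr13:100786487-100786736, minus strand: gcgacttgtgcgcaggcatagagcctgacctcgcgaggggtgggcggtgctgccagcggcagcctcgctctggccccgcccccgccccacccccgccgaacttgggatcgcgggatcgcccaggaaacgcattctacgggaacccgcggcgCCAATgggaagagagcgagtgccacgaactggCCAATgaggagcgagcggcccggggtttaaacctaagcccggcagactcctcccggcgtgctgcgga

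By gene, CHR letters were found for 5 of 9 genes called higher and 31 of 41 genes not called, and CCAAT for 6 of 9 and 30 of 41. None of the motifs searched was found for 2 of 9 genes called higher, Nusap1 and Mad2l1, and for 6 of 41 genes not called. No test was made of these shares.

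Libraries held 18.1 M to 23.2 M counts on listed transcripts. Of 10 fibroblast markers, 9 were tested, and 4 of these were called lower after Mic-628 (Col1a2, Col3a1, Fn1 and Vim) and 0 higher. That is 44.4% of the markers tested, against 2.25% of all 17128 rows tested that were called lower. The markers' summed level was 19713 to 20207 CPM with Mic-628 and 22247 to 23870 CPM with vehicle, and Fap was listed at 0. Of 13 markers of other cell types, 2 passed the filter, Cd68 and Tubb3, and neither was called. The summed level of the 13 was 14.54 to 16.34 CPM with Mic-628 and 14.98 to 15.84 CPM with vehicle. Adgre1, Epcam, Myod1 and Adipoq were at 0. The part of the lower fibroblast markers in the results on mitosis genes was not tested. CPM are a library's counts scaled to a common total after TMM scaling between libraries.

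After 1 day with Mic-628, 11 of the 59 G2 and mitosis genes were called higher, and 48 were not called. The 11 were the condensin genes Smc2 and Smc4, the proliferation marker Mki67, the midzone gene Prc1, the cytokinesis kinesin gene Kif20b, the spindle genes Tpx2, Ckap2 and Nusap1, the kinetochore kinesin gene Cenpe, and the checkpoint genes Bub1 and Mad2l1. Their rises were small, from 8.76% for Cenpe to 19.7% for Smc2. None of the 59 was called lower. A gene is called at an adjusted p under 0.05 in edgeR's quasi-likelihood test, adjusted over all 17128 rows tested. The 11 are 18.6% of the 59 genes, against 2.13% of all rows tested that were called higher. In the other direction the share was 0 of 59, against 2.25% of all rows. At an unadjusted edgeR p under 0.05, 30 of the 59 were higher and 0 lower, against 1396 higher and 1509 lower of all 17128 rows. With the batch number as a block, 7 of the 11 calls were kept, and Mad2l1, Kif20b, Ckap2 and Cenpe lost theirs (edgeR adjusted p 0.0832, 0.0785, 0.0732 and 0.0875). In DESeq2 with the same block, 2 members were called higher, Smc2 and Smc4, against 8 in DESeq2 without it. By limma-trend on log2 FPKM the same 2 were called.

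Small positive differences were found in nearly all members. The log2 fold change, Mic-628 over vehicle, was above 0 in 58 of 59 genes, against 8294 of all 17128 rows tested. Its median was 0.092, against -0.0040 over all rows tested. Among the members the log2 fold change ran from -0.01 for Cks2 to 0.29 for Spc24. All 4 batch pairs were higher with Mic-628 in 30 of the 59 genes, against 12.1% of all rows, and 0 of the 59 were lower in all 4. In 20 of the 59, every Mic-628 library lay above every vehicle library, against 5.63% of all rows, and the opposite order was found for 0. Among 9590 tested rows with a level in the range of the members, 3.03% were called higher. The libraries are bulk RNA, so more cells in G2 or mitosis and more of these RNAs per cell cannot be told apart.

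**Figure D1:**
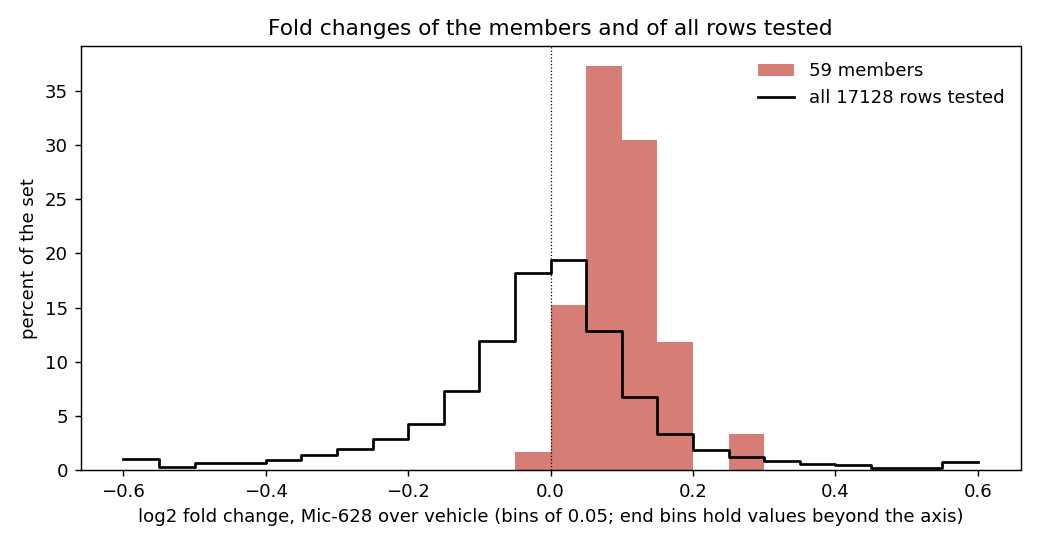
Distribution of log2 fold changes, Mic-628 over vehicle, for the 59 G2 and mitosis genes and for all 17128 rows tested, each as a share of its own set in bins of log2 fold change; values beyond the ends of the axis are in the end bins. Of the 59 members 58 lie above 0, with a median of 0.092, against -0.0040 for all rows; 9 members lie in the bin from 0 to 0.05, which holds the most rows.

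**Figure D2:**
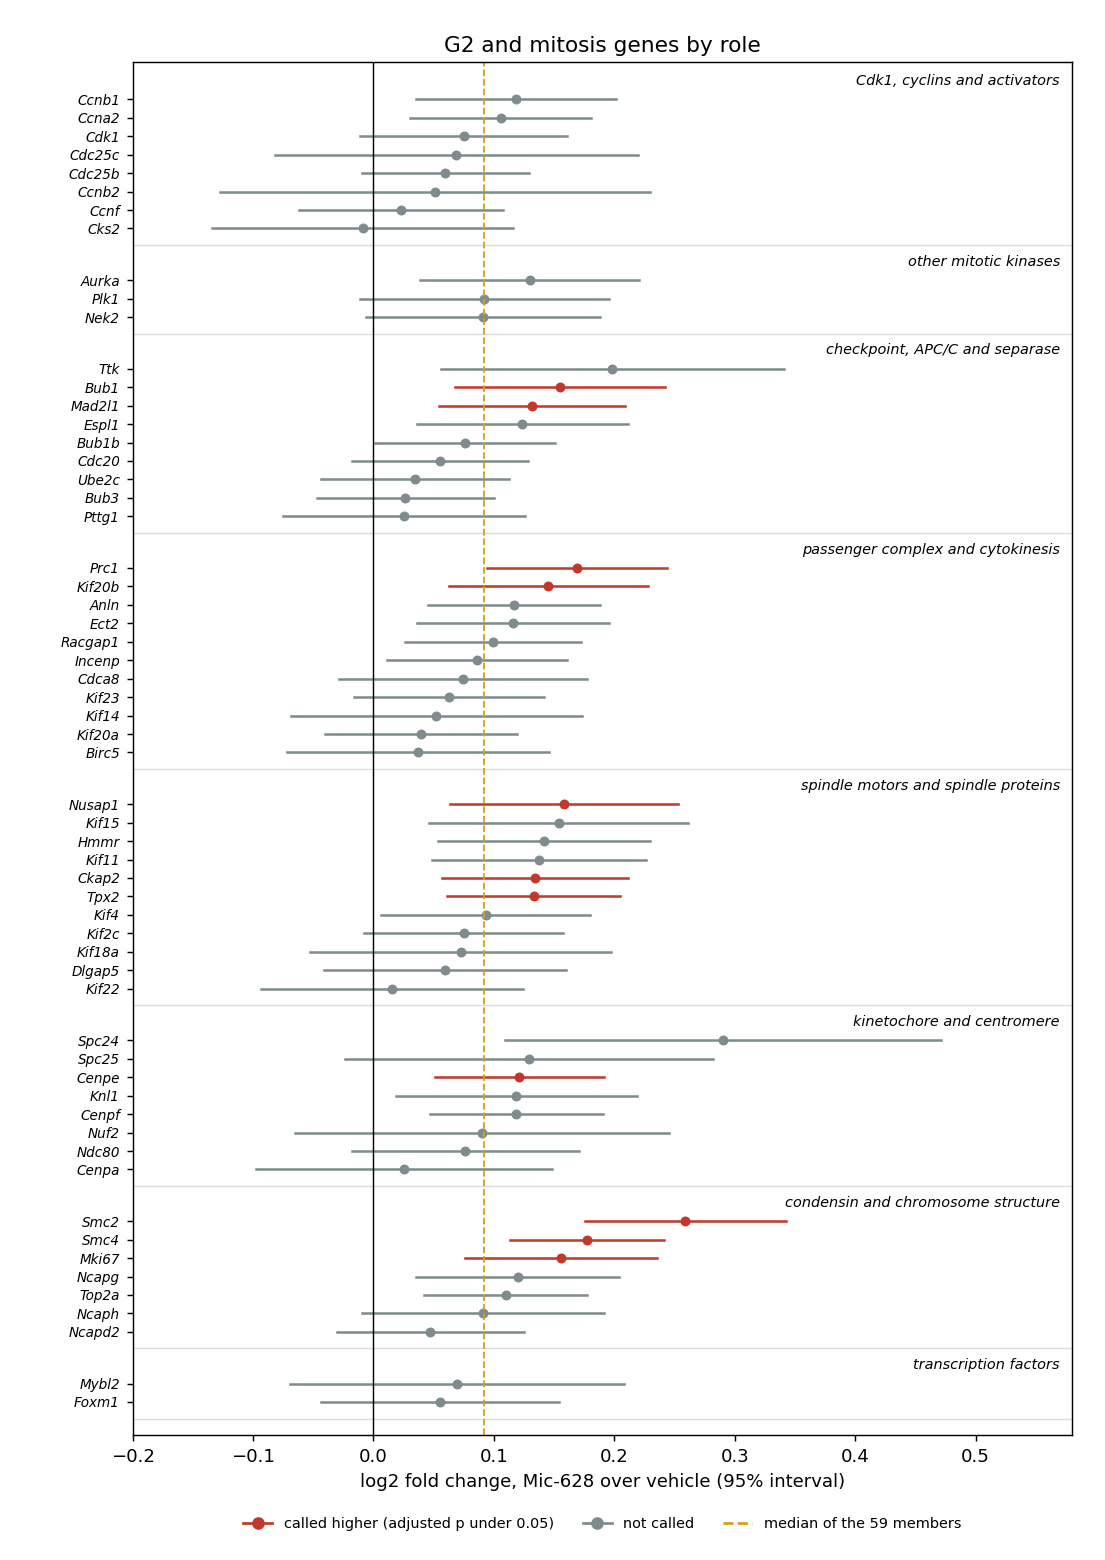
Log2 fold change of each of the 59 genes, Mic-628 over vehicle, by role, with its 95% interval from edgeR (4 libraries in each group). Red points are the 11 genes called higher, grey points were not called, and the dashed line is the median of 0.092; Spc24 has the largest value and one of the widest intervals.

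The Mic-628 libraries did not share the shift equally. The mean log2 level of the 59 genes, set against the vehicle mean, was 0.132, 0.037, 0.133 and 0.098 in Mic-628 replicates 1 to 4, against -0.023, 0.009, 0.010 and 0.004 in vehicle replicates 1 to 4. All 4 Mic-628 libraries lay above all 4 vehicle libraries, and Mic-628 replicate 2 lay nearest to them. It was the lowest of its group in 38 of the 59 genes and the highest in 0. Genes above every vehicle library numbered 46, 27, 48 and 42 in Mic-628 replicates 1 to 4, against 25.7%, 20.8%, 22.9% and 23.6% of all rows. Within batches 1 to 4, the Mic-628 library was higher in 50, 42, 56 and 48 of the 59 genes, against 48.3%, 49.8%, 49.4% and 51% of all rows. Without Mic-628 replicate 2, which was also the deepest library, 14 of the 59 genes were called higher and the median log2 fold change was 0.12. Without Mic-628 replicate 1 or 3, or without vehicle replicate 2, 3 genes were called, and without vehicle replicate 3, 5 were called. The median log2 fold change stayed between 0.085 and 0.13 in every alternative run. The 59 genes together took 0.419%, 0.396%, 0.414% and 0.403% of the counts in Mic-628 replicates 1 to 4, and 0.368%, 0.380%, 0.382% and 0.379% in vehicle replicates 1 to 4.

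**Figure D3:**
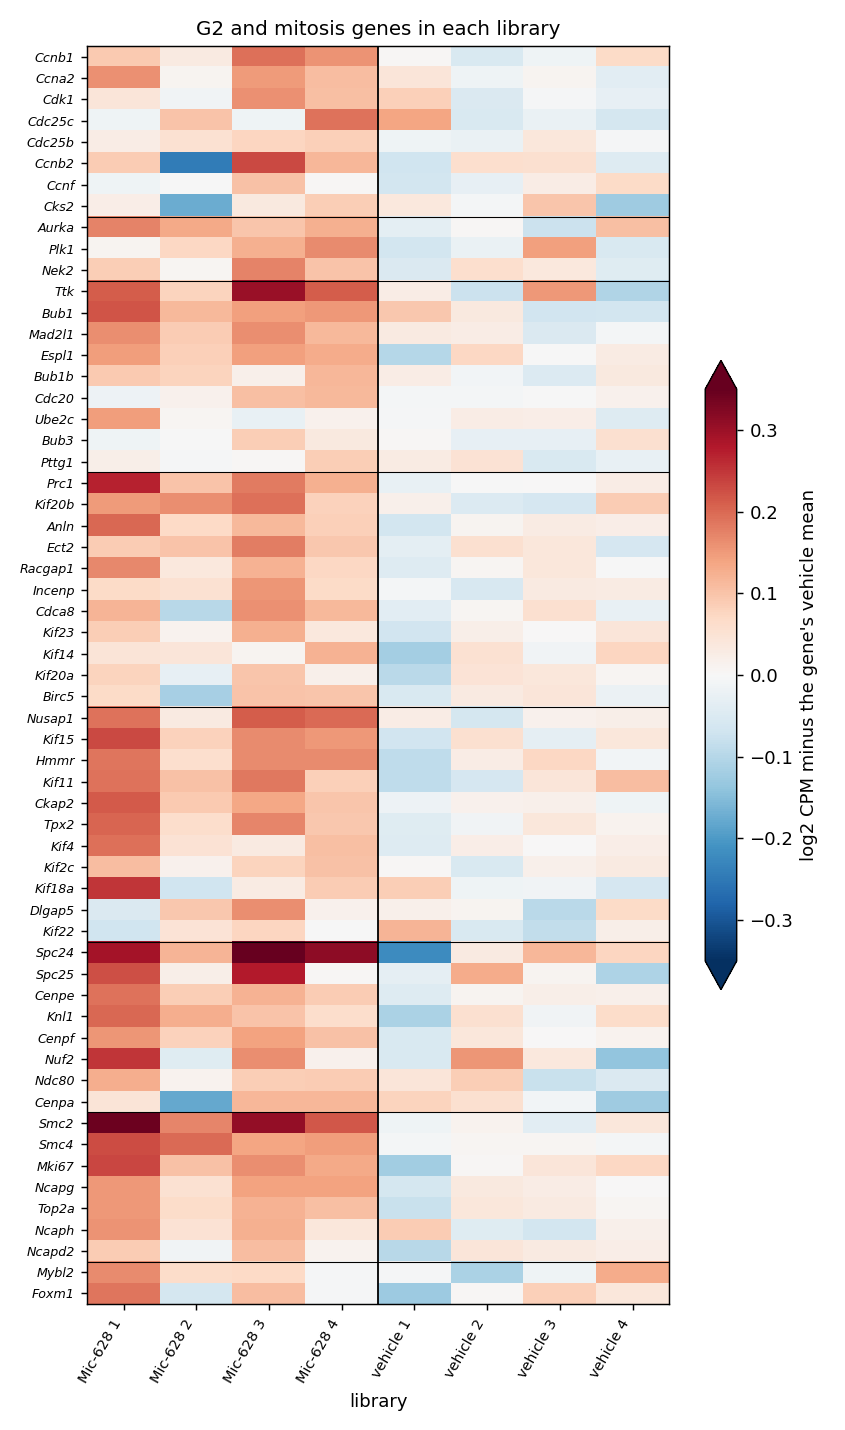
Log2 level of each of the 59 genes in each of the 8 libraries, set against the gene's vehicle mean, with the Mic-628 libraries left of the vehicle libraries and genes ordered by role. Mic-628 replicate 2 is paler or bluer than the other Mic-628 libraries in most genes, being the lowest of its group in 38 of the 59 genes.

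In the group of condensin and chromosome structure genes, 3 of 7 were called higher, Smc2, Smc4 and Mki67, and 0 lower. Smc2 and Smc4 had the smallest p of the 59 genes. Condensin is a ring-shaped complex that loops and compacts chromosomes for division, and Smc2 and Smc4 are the ATPase pair shared by both of its forms. Smc2 (chr4:52439243-52488260, build mm39, as for all gene positions below) had 73.5, 65.2, 71.7 and 67.3 CPM with Mic-628, against 57.3, 58.4, 56.4 and 59.5 CPM with vehicle. Every Mic-628 library was above every vehicle library. This rise of 19.7% was 0.26 on the log2 scale (SE 0.040), with an edgeR adjusted p of 0.000163. Smc4 (chr3:68912071-68941956) had 231.1, 226.4, 217.1 and 218.3 CPM with Mic-628, against 196.6, 198.2, 198.3 and 196.4 CPM with vehicle. Again the groups did not overlap, and the vehicle libraries lay within 2 CPM of each other. Smc4 rose by 0.18 on the log2 scale (SE 0.031), with an edgeR adjusted p of 0.000730. Both genes were called in all 22 alternatives run, the 12 that leave out a library or a batch included.

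None of the 3 subunits that complete condensin I passed the test. Ncapg averaged 45.5 ± 1.45 CPM with Mic-628 and 41.9 ± 1.26 CPM with vehicle (SD, n = 4 each), with no overlap of the groups and an edgeR adjusted p of 0.105. Ncaph and Ncapd2 had log2 fold changes of 0.09 and 0.05. Per length, Smc4 stood at 48.4 FPKM with Mic-628 and 42.8 FPKM with vehicle, and Smc2 at 12.2 FPKM with Mic-628 and 10.2 FPKM with vehicle. Top2a, the topoisomerase that untangles sister chromatids, was the member with the highest CPM, at 401.7 ± 9.96 with Mic-628 and 372.1 ± 13.8 with vehicle (SD, n = 4 each). Its groups did not overlap either, and its edgeR adjusted p was 0.0569. Mki67, which encodes the chromosome-coating protein Ki-67, had 226.4, 206.4, 215.1 and 211.0 CPM with Mic-628, against 176.9, 193.0, 198.1 and 202.4 CPM with vehicle (chr7:135291513-135318090). The groups lay apart, by the least between Mic-628 replicate 2 and vehicle replicate 4. It rose by 0.16 on the log2 scale (SE 0.039), with an edgeR adjusted p of 0.0181. Mki67 was not called without Mic-628 replicate 1, Mic-628 replicate 3 or vehicle replicate 2 (edgeR adjusted p 0.0791, 0.0637 and 0.0563). Leaving out batch 1, 2 or 3 also ended its call (edgeR adjusted p 0.0993, 0.064 and 0.0948). Its log2 fold change was 0.09 without batch 1.

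**Figure D4:**
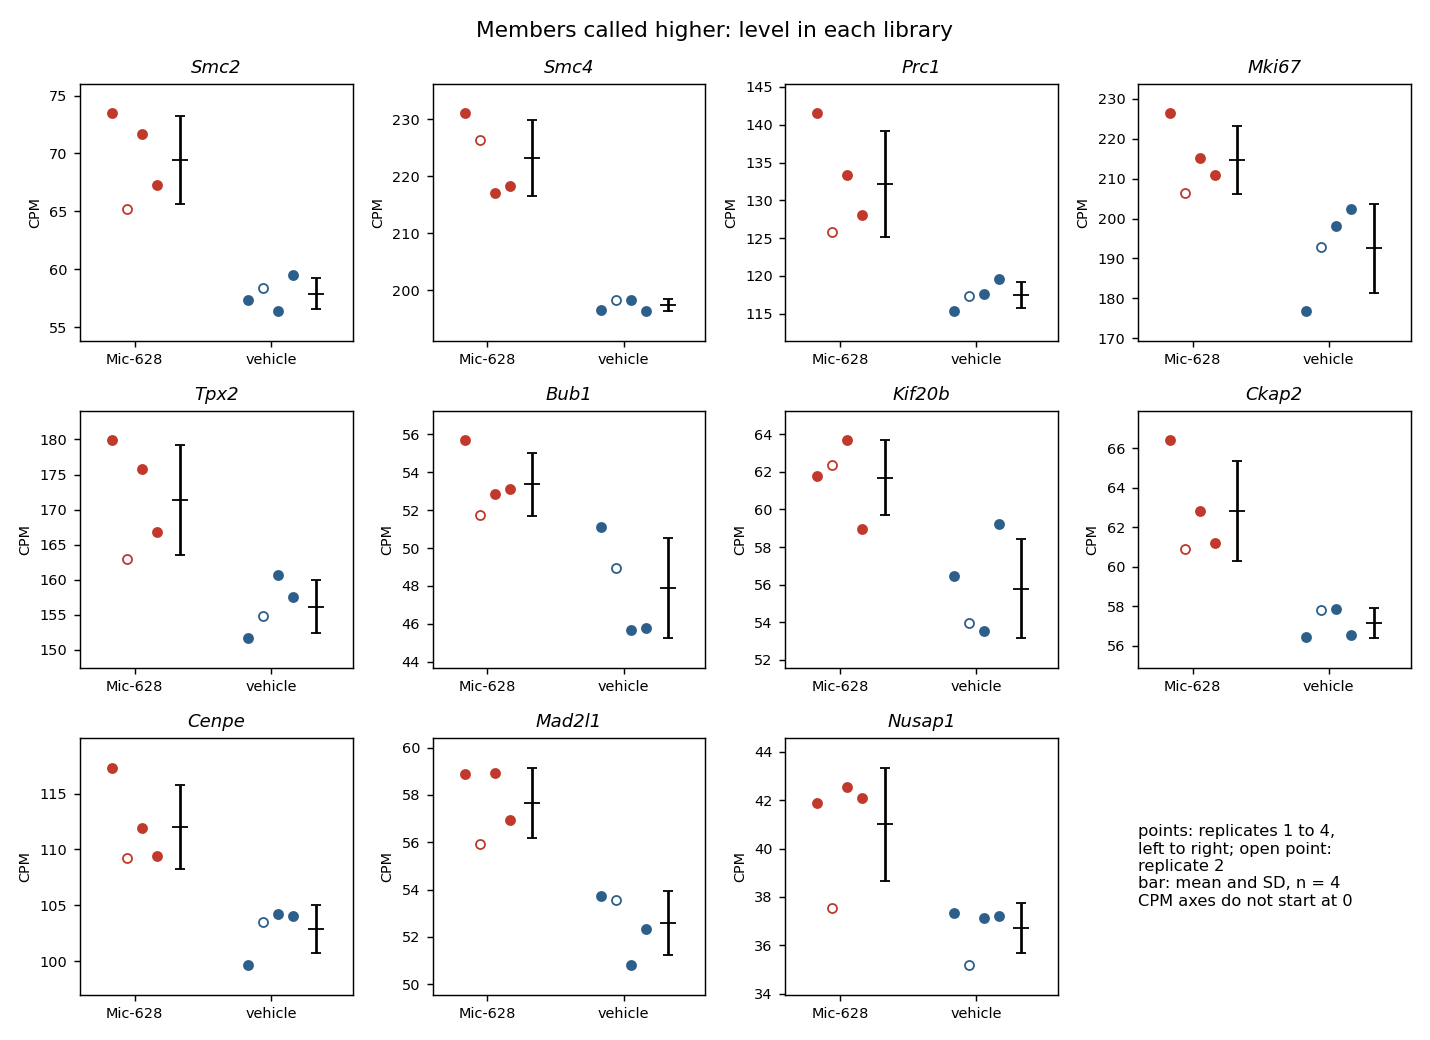
CPM in each library for the 11 genes called higher, Mic-628 left and vehicle right in each panel, with the mean and SD of 4 libraries as a bar; the axes do not start at 0. The groups are apart in 10 panels, and in Kif20b Mic-628 replicate 4 lies below vehicle replicate 4.

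Of the 11 passenger complex and cytokinesis genes, 2 rose and 0 fell. Prc1, which bundles antiparallel microtubules in the central spindle, had 141.5, 125.8, 133.3 and 128.1 CPM with Mic-628, against 115.4, 117.3, 117.6 and 119.6 CPM with vehicle (chr7:79944199-79966007). All Mic-628 libraries were higher. Prc1 rose by 0.17 on the log2 scale (SE 0.036), with an edgeR adjusted p of 0.00576. The span of Prc1 overlaps Rccd1 on the opposite strand, which averaged 33.3 CPM over all libraries and was also called higher (log2 fold change 0.19, edgeR adjusted p = 0.0298). Whether the counts used strand is not given in the sources used here, so reads of the 2 rows may not have been told apart where they overlap. The same limit holds for other members with an opposite-strand overlap. Among them were Cdc20 with Elovl1 (91.4 CPM), Ccna2 with Exosc9 (67.1 CPM) and Kif20a with Cdc23 (62 CPM). Elovl1, Exosc9 and Cdc23 were not called. Leaving out batch 3 ended the call of Prc1 (edgeR adjusted p = 0.0785), while leaving out any single library did not. Kif20b, a kinesin of late cytokinesis, had 61.8, 62.4, 63.7 and 58.97 CPM with Mic-628, against 56.4, 53.9, 53.5 and 59.2 CPM with vehicle (chr19:34899792-34953145). Replicate 4 of each group was about level, so that the groups overlapped and 3 of 4 batch pairs were higher. Kif20b rose by 0.15 on the log2 scale (SE 0.040), with an edgeR adjusted p of 0.0371. Leaving out Mic-628 replicate 1, 2 or 3, or vehicle replicate 2 or 3, ended its call (edgeR adjusted p 0.0743, 0.0898, 0.144, 0.154 and 0.134).

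The other 9 genes of this group were not called, with log2 fold changes of 0.04 to 0.12. Anln, the furrow scaffold anillin, averaged 178.5 ± 7.38 CPM with Mic-628 and 164.5 ± 4.83 CPM with vehicle (SD, n = 4 each), just outside the threshold at an edgeR adjusted p of 0.0537. Ect2, which activates RhoA at the furrow, and Racgap1, its binding partner and a subunit of centralspindlin, had log2 fold changes of 0.12 and 0.10. The other centralspindlin subunit, Kif23, had 0.06. Of the passenger complex, which corrects wrong attachments, Incenp had 0.09 with groups that did not overlap, Cdca8 (borealin) 0.07 and Birc5 (survivin) 0.04. The kinesin genes Kif14 and Kif20a had 0.05 and 0.04. Aurkb, the kinase of that complex and not one of the 59, averaged 33.9 ± 1.89 CPM with Mic-628 and 31.5 ± 1.70 CPM with vehicle (SD, n = 4 each; log2 fold change 0.11, edgeR adjusted p = 0.283).

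Among 11 spindle motors and spindle proteins, 3 rose and 0 fell, and the median log2 fold change of 0.133 was the highest of the 8 role groups. Tpx2, which activates Aurora A on spindle microtubules, had 179.9, 162.9, 175.8 and 166.8 CPM with Mic-628, against 151.7, 154.8, 160.6 and 157.6 CPM with vehicle (chr2:152689884-152737241). The groups lay apart, and Tpx2 rose by 0.13 on the log2 scale (SE 0.035), with an edgeR adjusted p of 0.0272. Ckap2, a microtubule-binding spindle protein, had 66.4, 60.9, 62.8 and 61.2 CPM with Mic-628, against 56.4, 57.8, 57.8 and 56.6 CPM with vehicle (chr8:22658176-22675835). Mic-628 replicate 1 was its highest library, and all Mic-628 libraries were above all vehicle libraries (log2 fold change 0.13, SE 0.038, edgeR adjusted p = 0.0393). Nusap1, which bundles microtubules near chromosomes, had 41.9, 37.5, 42.5 and 42.1 CPM with Mic-628, against 37.4, 35.2, 37.1 and 37.2 CPM with vehicle (chr2:119448779-119480641). Replicate 2 was the low library of both groups, and Mic-628 replicate 2 was barely above the highest vehicle library. Nusap1 rose by 0.16 on the log2 scale (SE 0.046), with an edgeR adjusted p of 0.0486. Its span overlaps Oip5 on the other strand, which was not called and averaged 7.09 CPM.

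Each of these 3 calls was lost when any of several single libraries was left out. Tpx2 was not called without Mic-628 replicate 1 or 3 or vehicle replicate 2 (edgeR adjusted p 0.103, 0.116 and 0.0981). Ckap2 was not called without Mic-628 replicate 1 or 3 (0.135 and 0.102) or without any of vehicle replicates 1 to 4 (0.0588, 0.0911, 0.0731 and 0.0817). Nusap1 was not called without Mic-628 replicate 1, 3 or 4 (0.119, 0.173 and 0.114) or vehicle replicate 2, 3 or 4 (0.188, 0.0893 and 0.0630). The other 8 genes of the group did not pass. Kif15 and Kif11, the motors that push spindle poles apart, had log2 fold changes of 0.15 and 0.14, and Hmmr, a spindle assembly factor, had 0.14. Kif4 and Kif22, chromosome-bound motors, had 0.09 and 0.02. Kif2c, which depolymerizes microtubules, had 0.07, Kif18a, needed for chromosome alignment, 0.07, and Dlgap5 0.06. Of these 8, Kif11, Hmmr and Kif15 had the smallest edgeR adjusted p, 0.0724, 0.0603 and 0.102.

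Of 8 kinetochore and centromere genes, 1 rose and 0 fell. Cenpe, the kinesin that carries chromosomes to the spindle equator, had 117.3, 109.3, 111.9 and 109.5 CPM with Mic-628, against 99.6, 103.5, 104.2 and 104.1 CPM with vehicle (chr3:134918298-134979372). Every Mic-628 library was above the vehicle libraries (log2 fold change 0.12, SE 0.034, edgeR adjusted p = 0.0405). The call was lost without Mic-628 replicate 1 or 3 (0.136 and 0.105) or any of vehicle replicates 1 to 4 (0.0728, 0.104, 0.0731 and 0.0522). Cenpf, a large protein of the outer kinetochore, was the gene nearest outside the threshold, at 83.6 ± 1.97 CPM with Mic-628 and 76.9 ± 2.06 CPM with vehicle (SD, n = 4 each, edgeR adjusted p = 0.0520).

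The 4 genes of the NDC80 complex, the microtubule coupler of the kinetochore, were not called. Spc24 had the largest log2 fold change of the 59 genes, 0.29 (SE 0.088, edgeR adjusted p = 0.0601), from 10.2, 9.02, 11.4 and 10.3 CPM with Mic-628, against 7.12, 8.48, 9.003 and 8.74 CPM with vehicle (chr9:21666738-21671599). The groups did not overlap, but Mic-628 replicate 2 and vehicle replicate 3 were nearly equal. Without Mic-628 replicate 2 it was called (edgeR adjusted p = 0.0301). Spc25, Nuf2 and Ndc80 had 0.13, 0.09 and 0.08. Per length, the complex ranged over 16.5 FPKM for Ndc80, 9.97 for Spc25, 6.96 for Spc24 and 5.66 for Nuf2 with Mic-628, against 15.7, 9.09, 5.69 and 5.29 FPKM with vehicle. Knl1, the scaffold for the checkpoint proteins, had a log2 fold change of 0.12, and the centromeric histone gene Cenpa had 0.03.

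In the group of spindle checkpoint, APC/C and separase genes, 2 of 9 rose and 0 fell. Bub1, a kinase recruited to unattached kinetochores, had 55.7, 51.7, 52.9 and 53.1 CPM with Mic-628, against 51.1, 49.0, 45.7 and 45.8 CPM with vehicle (chr2:127643045-127673785). The groups lay apart by less than 1 CPM, at Mic-628 replicate 2 and vehicle replicate 1. Bub1 rose by 0.15 on the log2 scale (SE 0.042), with an edgeR adjusted p of 0.0350. Mad2l1, which encodes the Cdc20 inhibitor MAD2, had 58.9, 55.9, 58.9 and 56.9 CPM with Mic-628, against 53.7, 53.6, 50.8 and 52.3 CPM with vehicle (chr6:66512374-66524204). All Mic-628 libraries were higher (log2 fold change 0.13, SE 0.037, edgeR adjusted p = 0.0440). Bub1 was not called without Mic-628 replicate 1, 3 or 4 (0.112, 0.0814 and 0.0553) or vehicle replicate 2, 3 or 4 (0.0662, 0.130 and 0.10). Mad2l1 was not called without the same libraries (0.109, 0.147 and 0.0594 for Mic-628, and 0.0860, 0.148 and 0.0837 for vehicle).

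The other 7 genes of the checkpoint group did not pass. Ttk, the kinase that starts the checkpoint, had a log2 fold change of 0.20 with an SE of 0.069 at 15.8 ± 0.996 CPM with Mic-628 and 13.8 ± 1.13 CPM with vehicle (SD, n = 4 each). Espl1, which encodes separase, had 0.12 with groups that did not overlap, and the checkpoint gene Bub1b had 0.08. The APC/C side stood nearer to 0: the activator Cdc20 had 0.06, the ubiquitin-conjugating enzyme gene Ube2c 0.03 and the securin gene Pttg1 0.03. Bub3, a partner of Bub1, had 0.03. For these last 4 genes the upper ends of the 95% intervals lay between 0.10 and 0.13 on the log2 scale.

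The genes that switch mitosis on were not among those called. This does not show that they were unchanged. In simulated data for this comparison, 7 of 50 genes changed 1.1-fold were recovered, and 28 of 50 changed 1.2-fold. Ccnb1 had a log2 fold change of 0.12, as did the called gene Cenpe. None of the 8 genes of Cdk1, its cyclins and its activators passed, their median log2 fold change was 0.064, and none had groups that lay apart. Ccnb1, the main mitotic cyclin, had the smallest p of the 8, with 66.5, 63.7, 71.2 and 69.5 CPM with Mic-628, against 62.5, 60.02, 61.7 and 65.2 CPM with vehicle (chr13:100915158-100923078). All 4 batch pairs were higher, but Mic-628 replicate 2 lay below vehicle replicate 4 (log2 fold change 0.12, SE 0.040, edgeR adjusted p = 0.103). It was called without Mic-628 replicate 2 (0.0493). Ccna2, the cyclin of S phase and G2, had 0.11 and Cdk1 itself 0.07. The phosphatase genes Cdc25c and Cdc25b, which remove the inhibitory phosphates from Cdk1, had 0.07 and 0.06. Ccnb2 had 0.05 and Ccnf, an F-box protein, 0.02. Cks2, a small Cdk-binding protein, was the only member with a log2 fold change below 0: it had 23.5, 20.5, 23.7 and 24.6 CPM with Mic-628, against 23.7, 23.1, 24.8 and 21.2 CPM with vehicle (chr13:51799268-51804696). Its libraries were mixed (log2 fold change -0.01, SE 0.060, edgeR adjusted p = 0.966), and the sign turned when Mic-628 replicate 2 or vehicle replicate 1 or 3 was left out.

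The 3 other mitotic kinase genes were close together. Aurka, the centrosome and spindle kinase, had 42.1, 40.9, 39.9 and 40.7 CPM with Mic-628, against 36.4, 37.4, 35.4 and 40.1 CPM with vehicle (chr2:172198110-172212455). Vehicle replicate 4 lay among the Mic-628 libraries, so the groups overlapped (log2 fold change 0.13, SE 0.044, edgeR adjusted p = 0.104). Without that library Aurka was called (0.0338). Plk1, the polo-like kinase, and Nek2, which splits the centrosomes, both had 0.09. The transcription factor genes of the program did not pass either. Foxm1 had 100.1, 84.2, 94.8 and 87.7 CPM with Mic-628, against 80.5, 88.2, 93.1 and 90.3 CPM with vehicle (chr6:128339930-128353109). The groups overlapped over most of their range, and Foxm1 was higher in 2 of 4 batch pairs (log2 fold change 0.06, SE 0.048, edgeR adjusted p = 0.612). Mybl2 had 0.07. The intervals at 95% reached 0.15 for Foxm1 and 0.21 for Mybl2, so the interval of Mybl2 includes the value of Smc4, 0.18.

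Levels per length spanned a wide range within the 59 genes. The median was 14.7 FPKM with Mic-628 and 13.4 FPKM with vehicle. Ube2c was highest, at 89.5 FPKM with Mic-628 and 87.3 FPKM with vehicle, followed by Top2a at 72.2 with Mic-628 and 66.9 with vehicle. Kif14 was lowest, at 1.91 FPKM with Mic-628 and 1.84 FPKM with vehicle. In vehicle libraries 20 genes had at least 20 FPKM and 5 had under 5. Replicates varied as in other genes: the median coefficient of variation of the members was 4.13% with Mic-628 and 4.02% with vehicle, against 4.07% with Mic-628 and 4.14% with vehicle over 9586 rows of like level. The genes called were on the whole better counted. Their median count was 1335 and their median SE 0.038, against 916.9 and 0.044 for the 48 not called, and the lowest mean count of a called gene was 815.1. Of the 48, 19 were higher at an unadjusted edgeR p under 0.05, against 1396 of all 17128 rows, called rows included.

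Of 35 further spindle, cytokinesis and mitosis genes, 3 rose and 0 fell, with a median log2 fold change of 0.093. The 3 were Ncapg2, a subunit of condensin II (46.6 ± 0.609 CPM with Mic-628 and 40.4 ± 2.38 CPM with vehicle, SD, n = 4 each; log2 fold change 0.20, edgeR adjusted p = 0.00565), the spindle gene Ckap2l (0.18) and the importin gene Kpna2 (0.13). Of 33 further kinetochore and centromere genes, 3 rose and 0 fell, with a median of 0.080. Among those that rose were Kntc1, a checkpoint protein of the outer kinetochore (0.19), and Cenpq of the inner kinetochore (0.21). Cohesin genes had a median of 0.064 with 0 of 12 called. At an unadjusted edgeR p under 0.05, 4 of 12 were higher, against 1396 of all 17128 rows. Subunits and activators of APC/C had a median of 0.007 with 0 of 16 called by edgeR, where 2 were higher and 2 lower at an unadjusted p under 0.05. Of 11 DREAM and MuvB genes, 1 rose and 0 fell, Rbl1, which encodes the pocket protein p107 (0.23, edgeR adjusted p = 0.0355). Called higher were 8.57% of the 35 genes, 9.09% of the 33 and 9.09% of the 11, against 2.13% of all rows tested. In the DREAM and MuvB list that share is 1 gene.

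Of 16 brakes on mitotic entry, 1 rose and 0 fell, Gadd45b, a stress-induced gene, at 79.0 ± 4.96 CPM with Mic-628 and 65.4 ± 2.29 CPM with vehicle (SD, n = 4 each; log2 fold change 0.27, edgeR adjusted p = 0.000138). Wee1, the kinase that inhibits Cdk1 and a known clock-controlled gene in mouse liver, averaged 27.6 ± 1.14 CPM with Mic-628 and 26.4 ± 1.18 CPM with vehicle (SD, n = 4 each; log2 fold change 0.07, edgeR adjusted p = 0.544). Of 15 CDK inhibitors and G1 cyclins, 12 were tested, 1 rose (Ccng1, 0.13) and 2 fell (Ccnd3, -0.24, and Ccng2, -0.22). The share called higher was 6.25% of the 16 brakes and 8.33% of these 12, 1 gene in each list. Over all rows tested it was 2.13%. Of the 12, 25% were called in either direction, against 4.37% of all rows tested. Cdkn1a, which encodes p21, had 73.1 ± 2.00 CPM with Mic-628 and 74.0 ± 2.83 CPM with vehicle (SD, n = 4 each; log2 fold change -0.02, edgeR adjusted p = 0.864). Ccnd1 had a log2 fold change of 0.09 (edgeR adjusted p = 0.260). Cdkn2a and Cdkn2b were at 0 in these libraries.

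S phase genes were set beside the mitosis genes for comparison. Of the 59 mitosis genes 11 rose (18.6%), with a median log2 fold change of 0.092, against 8 of 32 S phase genes (25%) with a median of 0.113. None of the 32 fell by edgeR's test, also at an unadjusted p under 0.05. The 4 S phase genes with the smallest p were the helicase subunit genes Mcm6 (0.15) and Mcm4 (0.13), Uhrf1, which maintains DNA methylation (0.13), and the ribonucleotide reductase gene Rrm2 (0.18). The mean log2 level of the S phase list against its vehicle mean was 0.132, 0.076, 0.160 and 0.11 in Mic-628 replicates 1 to 4, with replicate 2 again lowest. In vehicle libraries it lay between -0.025 and 0.011. The difference between the lists was not tested.

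**Figure D5:**
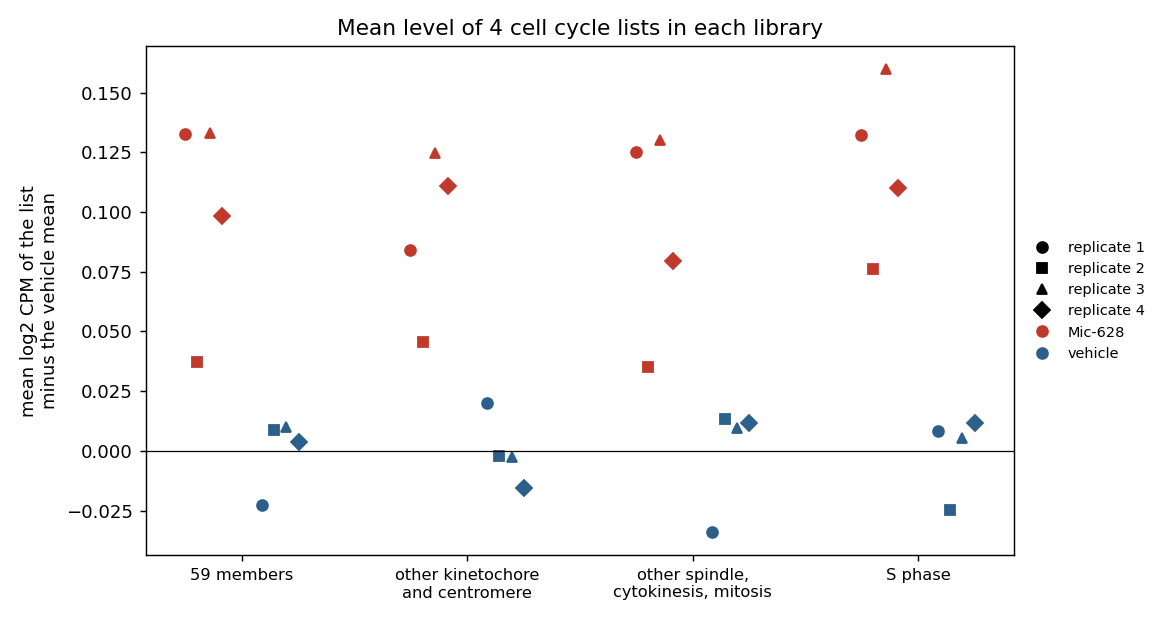
Mean log2 level of each list in each library, set against the list's vehicle mean, with Mic-628 left of vehicle; each point is 1 library. For the 59 members and for the 32 S phase genes all 4 Mic-628 libraries lie above all 4 vehicle libraries, and Mic-628 replicate 2 is the lowest Mic-628 library in both lists.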

How the data were processed

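Poly(A) RNA from NIH3T3 cells was sequenced in 8 libraries, 4 with Mic-628 and 4 with vehicle, from a stranded kit and paired-end reads per the labels' protocols. The tools were HOMER 4.11, STAR 2.7.10a and bcl2fastq, and the build was GRCm39 (mm39), per the submitters' processing notes. The roles of these tools are not given in the sources used here, nor is whether counting used strand. The authors deposited exon counts for 78298 rows in steps of 0.5, treated here as estimated counts and rounded to whole numbers, and FPKM values of the same rows. FPKM recomputed from these counts, the exon lengths and the totals in the file headers differed by at most 5e-04. Listed counts came to 92.3% to 93.1% of the header totals.

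The main test was edgeR 4.0.16 in R 4.3.3: filterByExpr (minimum count 10), TMM scaling (factors 0.9946 to 1.007), its quasi-likelihood F test with no block, and Benjamini-Hochberg adjustment over 17128 rows. A standard error is the size of the log2 fold change divided by the square root of F. Log2 CPM has a prior count of 0.5. The alternatives were a replicate block, DESeq2 1.42.0 with and without it, other scalings and filters, limma-trend (limma 3.58.1) on log2(FPKM + 1) or log2(FPKM + 0.1), each library or batch left out in turn, and an adjusted p under 0.01.

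The labels state a shared batch, so the numbers pair the libraries. Same-numbered libraries did not deviate together: over 10292 genes the correlations of their deviations were -0.0925, 0.0744, -0.0213 and -0.0949, while pairs with unlike numbers gave -0.117 to 0.141. Replicates differed by more than counting noise (chi-square per gene 1.57 to 4.74), so none was treated as a duplicate.

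The members and all gene lists were chosen with earlier results of these data known. Values per library are given for the called members, for the member with the smallest p in each role group without a call, and for the largest and smallest log2 fold change; of other lists, up to 4 called genes are named, and Wee1, Cdkn1a, Ccnd1 and Aurkb in any case. A gene that meets this rule is not reported here, though counts include it. Figures were drawn with matplotlib 3.10.9.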

Additional observations from a re-analysis of the deposited data

Results flagged for a closer look

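Of 32 groups of 4 libraries looked at, 3 held a library far from the others, where chance gives about 1 in 20. Nusap1 was lowest in Mic-628 replicate 2, at 37.5 CPM, set apart from the other 3 Mic-628 libraries. In the vehicle group Nusap1 was lowest in vehicle replicate 2, at 35.2 CPM. Both libraries carry the batch number 2. Cenpe was lowest in vehicle replicate 1, at 99.6 CPM, apart from the other 3 vehicle libraries.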

How the results depend on the processing

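The count of 11 members called higher was 7 with the replicate block, 2 in DESeq2 with the replicate block, 2 in limma-trend with either pseudocount and 3 at a threshold of 0.01. When a library or a batch was left out it lay between 2 and 14: 5, 3, 2 and 7 without batches 1 to 4. It lay between 8 and 15 in DESeq2 without the block and under the other scalings and filters. The count of members called lower was 0 in every alternative, and the median log2 fold change of the members lay between 0.085 and 0.13. DESeq2 without the block called 8 members, 6 of them among the 11. The number of members with a log2 fold change above 0 lay between 54 and 59, lowest without Mic-628 replicate 3. It was 55 without batch 1 and without batch 3. Only some genes were followed singly through the alternatives. Of these, Foxm1 turned in sign, at -0.0268 without batch 1 and otherwise up to 0.1002. So did Cks2, between -0.0801 and 0.0479 when libraries or batches were left out. The cause of the lost calls was not tested. Members with few counts, such as Spc24, had the widest intervals.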
